A study of Mus musculus with 2 samples.

Results

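Socs3, Socs1, Cish, Pim1, Bcl3 and Stat3 form a set of genes around cytokine feedback: 5 targets of STAT transcription factors and Stat3, a STAT itself. They were chosen by name and make up 6 of the 32285 genes listed for these libraries. All 6 were detected. The data are single-cell RNA-seq of blood cells enriched for neutrophils by depletion of other cells with magnetic beads, with 1 library from WT mice and 1 from APP/PS1 mice. APP/PS1 mice carry transgenes for mutant human amyloid precursor protein and presenilin 1 and serve as a model of amyloid deposition in Alzheimer disease, and the WT controls were C57BL/6J. Each library pooled the blood of 3 female mice aged 7 months, so there was 1 sample per genotype and no replicate against which a difference could be tested. The intervals below are exact 95% intervals for counting error only. They say nothing about the spread between mice, and genotype cannot be told apart from library.

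Cytokine receptors without kinase activity of their own signal through Janus kinases, which phosphorylate STAT proteins that enter the nucleus and switch on target genes. Some of these targets limit the signal. SOCS3 blocks receptors of the gp130 and G-CSF type, SOCS1 acts mainly on interferon and common gamma chain signals, and CISH is induced by STAT5 and restrains cytokine and T cell receptor signals. PIM1 is a survival kinase induced by STAT3 and STAT5, and BCL3 is an IκB-family protein that enters the nucleus and modulates NF-κB target genes. In neutrophils the main inputs to this loop are G-CSF, GM-CSF and interferons, and SOCS3 is the brake on G-CSF.

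STAT factors bind palindromes of the form TTCNNNGAA, and the letters next to the transcription start are shown for the 2 genes of the set in which such a palindrome was found. The RefSeq start regions of GRCm38.p6, reaching from 250 bases before to 50 bases after each start, were searched for TTCNNNGAA and for the same ends with 4 bases between them. Both patterns read the same on either strand. Of 32851 such windows, 8.30% held TTCNNNGAA and 0.457% held it more than once. The Socs3 window held 1 match and the Cish window held 2, while the windows of Socs1, Bcl3 and Stat3 and both windows of Pim1 held neither pattern. In the 30-base stretches below the matches are in capitals. The Socs3 stretch lies at chr11:117969501-117969530 on the minus strand, upstream of the start, and the Cish stretch at chr9:107296654-107296683 on the plus strand, across the start.
Socs3: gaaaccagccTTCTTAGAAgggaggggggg
Cish: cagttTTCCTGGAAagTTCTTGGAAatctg
A match is a description of the letters and not evidence of binding.

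By the GENCODE annotation of mm10, Socs3 (ENSMUSG00000053113) lies at chr11:117966079-117970047, Socs1 (ENSMUSG00000038037) at chr16:10782240-10785536, Cish (ENSMUSG00000032578) at chr9:107296026-107302784, Pim1 (ENSMUSG00000024014) at chr17:29490753-29496112, Bcl3 (ENSMUSG00000053175) at chr7:19808462-19822770 and Stat3 (ENSMUSG00000004040) at chr11:100885098-100939540. None overlaps another gene on its own strand. Stat5a lies on the opposite strand across part of Stat3, and noncoding genes lie opposite Cish, Pim1 and Bcl3. Whether the counting used strand is not given in the sources used here.

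Of 17123 WT and 17645 APP/PS1 barcodes, 14564 and 15208 passed the filters, with medians of 3275 and 3086 UMIs (distinct captured transcripts) per cell. The libraries shared 83 barcodes. The enriched cells were not neutrophils alone. Levels are given as CPM, a gene's UMIs per 1000000 UMIs summed over the class. Clusters with at least 100000 CPM from the neutrophil markers were called neutrophil-like and held 17174 cells, 7585 of WT and 9589 of APP/PS1. Of their 3 clusters, 1 of 6009 cells was led over all other cells by interferon-induced and platelet genes, and 1 of 264 cells by Camp, Ngp and Ltf, so member values are also given for these apart below. The other classes were Treml4 monocyte-like (4606 cells), Ccr2 monocyte-like (4213), NK-like (1188), T-like (731, of which 6 had a Cd4 UMI without a Cd8 UMI), B-like (610), erythroid-like (401) and basophil-like (116) cells. A cluster of 165 cells was led by Il7r and Trdc, with 3 T cell and 2 gamma-delta T cell markers among its leading genes. A cluster of 465 cells led by Igha and Jchain stayed unnamed. Gsto1, Csta1, Mal, Ly6a, Prss27 and Psca were also among its 10 leading genes, and its median was 1792 UMIs per cell. UMIs of the neutrophil genes S100a8 and S100a9 were found in every class: together they stood at 160134 CPM in WT and 134863 in APP/PS1 neutrophil-like cells, and elsewhere at 4.28% to 35.7% of that level. This share is given below beside Socs3 and Bcl3.

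Among the SOCS genes, Socs3 stood highest in neutrophil-like cells of both libraries, at 262 CPM in WT and 293 in APP/PS1. The Treml4 monocyte-like cells followed at 173 and 156, and Ccr2 monocyte-like cells were far lower at 58.9 and 70.3. The Il7r and Trdc cluster reached 173 in WT, overlapping the Treml4 monocyte-like interval, but only 69.8 in APP/PS1. NK-like cells lay at 44.5 and 49.2, T-like cells at 67.8 and 47.3, and B-like cells at 51.2 and 37.2. In B-like cells this was 19.6% and 12.7% of the neutrophil-like level, against 7.14% and 4.28% for S100a8 and S100a9. In the Igha and Jchain cluster it was 40.9% and 57.1% against 35.7% and 30.8%, and in erythroid-like cells 26.1% and 33.7% against 18.1% and 26.8%. Counted per cell, the order changed in WT. Neutrophil-like cells, with a mean of 2871 UMIs in all, had 0.752 Socs3 UMIs per cell, and Treml4 monocyte-like cells, with a mean of 4907, had 0.847. The Il7r and Trdc cluster, with a mean of 5270, had the most, at 0.911.

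Socs1 and Cish were highest in the Il7r and Trdc cluster instead. Socs1 stood there at 122 CPM in WT and 65.1 in APP/PS1, from 58 and 28 UMIs, and its interval overlapped that of no other class in either library. NK-like cells had 23.5 and 24.2, neutrophil-like cells 10.8 and 12.9, and both monocyte-like classes between 3.82 and 5.11. Cish stood at 171 and 116 in the Il7r and Trdc cluster, from 81 and 50 UMIs. T-like cells had 29.5 and 59.6, basophil-like cells 31.6 and 41.4, B-like cells 12.2 and 11.5 and NK-like cells 9.03 and 6.58. Neutrophil-like cells were among the lowest classes for Cish, at 1.47 in WT and 0.543 in APP/PS1, from 32 and 16 UMIs. Between the levels of Socs3 and Cish, on the log2 scale, r was -0.54 over 16 profiles of 8 classes in 2 libraries, which share depth and library and are not independent.

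Pim1 was high in myeloid classes. Neutrophil-like cells had 1569.7 CPM in WT and 1566 in APP/PS1, Treml4 monocyte-like cells 1351 and 1245, and Ccr2 monocyte-like cells 1054 and 1000.3. Basophil-like cells had 1005 and 1370, and the Igha and Jchain cluster 1297 and 1595. T-like cells were lowest at 371 and 370.4. Counted per cell, Ccr2 monocyte-like cells had the most Pim1, with 8.85 and 7.68 UMIs against 4.51 and 4.81 in neutrophil-like cells. Pim1 was seen in most neutrophil-like cells even after each cell was thinned to 1000 UMIs: 73.6% in WT and 73.4% in APP/PS1. The T-like cells, the lowest class, had thinned shares of 22.3% and 25.7%.

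Bcl3 was highest in neutrophil-like cells, at 76.4 CPM in WT and 59.5 in APP/PS1, followed by Ccr2 monocyte-like cells at 54.2 and 45.5 and Treml4 monocyte-like cells at 42.5 and 34.5. The lymphoid classes lay between 16.3 and 29.1. In T-like cells Bcl3 stood at 24.0% and 28.9% of the neutrophil-like level, against 9.57% and 10.5% for S100a8 and S100a9. In APP/PS1 basophil-like cells it stood at 7.73% against 8.31%, but from 1 Bcl3 UMI only. Counted per cell the Ccr2 monocyte-like cells were ahead, with 0.455 and 0.35 UMIs per cell against 0.219 and 0.183 in neutrophil-like cells. Stat3, the transcription factor of the set, was highest in Treml4 monocyte-like cells at 347 and 303, with neutrophil-like cells second at 247 and 227. NK-like cells had 205 and 168 and Ccr2 monocyte-like cells 199.8 and 172, and these neighbours overlapped in both libraries. T-like cells had 116 and 111. Over the 16 profiles Pim1 and Bcl3 ran most alike among the members, with r = 0.88, followed by Socs3 and Pim1 with r = 0.82.

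**Figure D1:**
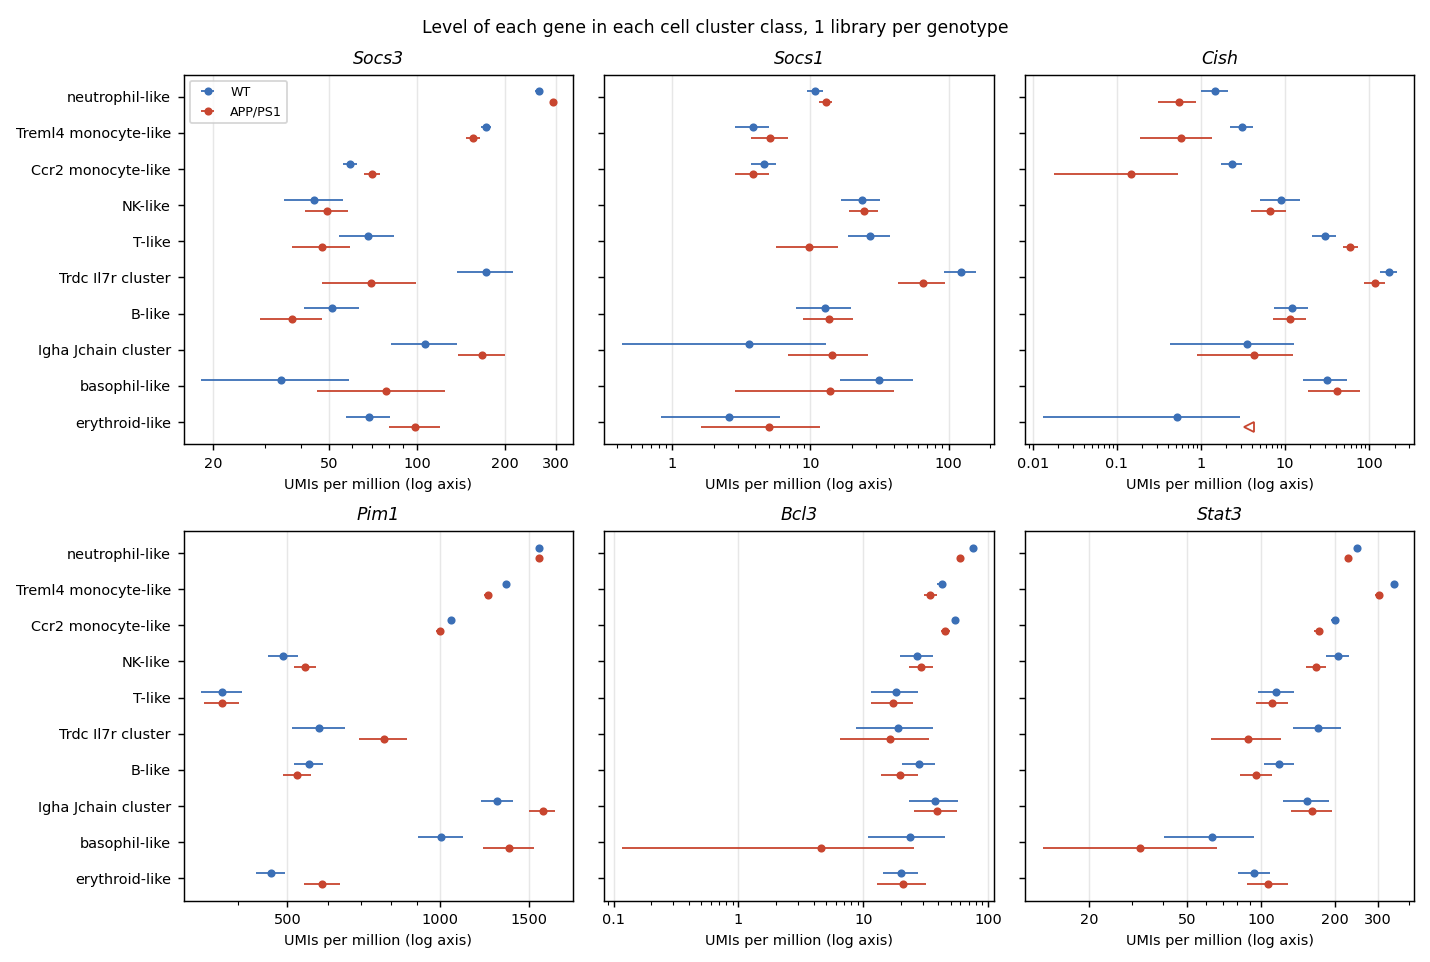
Level of each gene in CPM (horizontal log axis, a separate scale for each gene) in 10 cell classes, WT in blue and APP/PS1 in red. Points are 1 library each, lines are exact 95% Poisson intervals, and the open triangle marks the upper limit where no UMI was counted. Socs3, Pim1 and Bcl3 are high in neutrophil-like cells, while Socs1 and Cish peak in the Il7r and Trdc cluster.

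The first question put to the data was whether these genes differed between WT and APP/PS1 neutrophils. The differences were small for most of them. Bcl3 was lower in APP/PS1 neutrophil-like cells, at 59.5 against 76.4 CPM, from 1753 and 1663 UMIs, a log2 ratio of -0.36 (-0.46 to -0.26). Socs3 was higher, at 293 against 262, from 8631 and 5701 UMIs, a log2 ratio of 0.16 (0.11 to 0.21). Stat3 was slightly lower, at 227 against 247, a log2 ratio of -0.12 (-0.18 to -0.07). Pim1 was nearly level, at -0.003 (-0.02 to 0.02). Socs1 was at 12.9 against 10.8, from 380 and 236 UMIs, a log2 ratio of 0.25 (0.01 to 0.49), whose lower limit is close to 0.

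These ratios were then set beside those of all genes. Of 6147 genes that reached 200 UMIs in either library, 3.38% were past a log2 ratio of 0.5 higher and 2.47% lower in APP/PS1 neutrophil-like cells, 5.86% in all. Of the 5 members with that many UMIs, 0 were past it in either direction. Their median log2 ratio was -0.003, beside 0.06 over all these genes. Only 4.34% of the genes had a lower ratio than Bcl3, while 16.6% had a lower ratio than Stat3, 72.4% than Socs3 and 84.5% than Socs1. Cish had too few UMIs for this count and is described apart.

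Shares of cells with a UMI were compared after thinning. After thinning to 1000 UMIs, Socs3 was seen in 22.0% of WT neutrophil-like cells (exact binomial interval 21.1% to 23.0%) and 23.9% of APP/PS1 cells (23.1% to 24.8%). Before thinning the shares were 45.5% and 48.9%, and NK-like cells had thinned shares of 2.36% and 3.28%. Bcl3 was seen in 7.49% (6.91% to 8.10%) and 5.79% (5.33% to 6.28%) of thinned cells, and Stat3 in 21.6% and 20.3%. Socs1 was seen in 1.05% and 1.41%. For Socs3 and Bcl3 the intervals of the libraries were apart, for Socs3 only just. The intervals are narrow with this many cells, and the share of all genes with intervals apart was not counted.

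Bcl3 and Stat3 were lower in APP/PS1 in both large neutrophil-like clusters. In the largest cluster alone, with 10901 cells, the log2 ratio was -0.31 for Bcl3 (-0.43 to -0.19), -0.08 for Stat3 (-0.14 to -0.01) and 0.20 for Socs3 (0.14 to 0.26). In the cluster led by interferon-induced and platelet genes, it was -0.38 for Bcl3, -0.17 for Stat3 and 0.17 for Socs3. For Socs1 the log2 ratio was 0.30 (-0.01 to 0.62) and 0.21 (-0.17 to 0.60) in these clusters, in that order. In the cluster of 264 cells led by Camp, it was -0.63 (-1.72 to 0.49) for Bcl3, -0.31 (-0.69 to 0.08) for Stat3, 0.05 (-0.88 to 1.05) for Socs3, 0.17 (-0.14 to 0.49) for Pim1 and, from 6 and 2 UMIs, -2.58 (-5.92 to -0.10) for Socs1. Platelet RNA and stress-type RNA moved with the library as well. The 10 platelet genes summed to 1590 CPM in WT and 2100 in APP/PS1 neutrophil-like cells, with 10 of 10 higher, and the immediate early and handling response genes summed to 21620 and 28965. In cells without any platelet UMI, the log2 ratio was 0.21 for Socs3, -0.29 for Bcl3 and 0.10 for Pim1, and for Stat3 it was -0.08 (-0.19 to 0.03). The part of the immediate early genes in these results was not tested.

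In both monocyte-like classes Bcl3 and Stat3 were lower in APP/PS1 too. In Treml4 monocyte-like cells Bcl3 was at 34.5 against 42.5 CPM, a log2 ratio of -0.30 (-0.51 to -0.10), and Stat3 at 303 against 347, a log2 ratio of -0.19 (-0.26 to -0.13). In Ccr2 monocyte-like cells the log2 ratios were -0.25 (-0.40 to -0.11) and -0.21 (-0.29 to -0.14). The sign of the Socs3 ratio differed between these classes, a difference that was not tested: it was lower in APP/PS1 Treml4 monocyte-like cells, with a log2 ratio of -0.15 (-0.25 to -0.05), and higher in Ccr2 monocyte-like cells, with 0.25 (0.13 to 0.38). In the latter, 95.03% of 7220 genes had a lower ratio than Socs3, 10.5% than Bcl3, 14.4% than Stat3 and 40.5% than Pim1. In Treml4 monocyte-like cells 21.1% of 6256 genes had a lower ratio than Socs3, 6.43% than Bcl3, 14.8% than Stat3 and 27.0% than Pim1. Pim1 was a little lower in both, with -0.12 (-0.15 to -0.08) and -0.08 (-0.11 to -0.04). Of the 4 members with at least 200 UMIs, 0 were past 0.5 in either class, where 2.43% of all genes in Treml4 and 3.23% in Ccr2 monocyte-like cells were. Other RNA moved with the library here too: the immediate early list summed to 11011 and 14236 CPM in Treml4 and 9253 and 10686 in Ccr2 monocyte-like cells, and the platelet list to 579 and 661 and to 1063 and 1393. Their part in the member ratios was not tested.

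Lymphoid classes had fewer cells and wider intervals. Stat3 was lower in APP/PS1 NK-like cells, at 168 against 205 CPM, a log2 ratio of -0.29 (-0.49 to -0.08). In T-like cells Socs1 was lower, from 34 UMIs in WT and 16 in APP/PS1, a log2 ratio of -1.46 (-2.42 to -0.57), and Socs3 was lower with -0.52 (-0.98 to -0.06). Of the 5891 genes that reached 30 UMIs in either library in T-like cells, 1.26% were past a log2 ratio of 1 lower. Socs1 was past it and Socs3 was not, but Socs1 reached 30 UMIs only in WT. That minimum was chosen after the values were seen. Socs1 there ranged from -2.56 with thinned cells to -0.76 without limits on UMIs and genes per cell. The NK cell markers summed to 5951 CPM in WT and 8614 in APP/PS1 T-like cells and Ccr2 stood at 57.4 and 147, and their part in these ratios was not tested. In the Il7r and Trdc cluster, with 90 WT and 75 APP/PS1 cells, the 3 SOCS-family genes and Stat3 were all lower in APP/PS1: Socs3 with -1.31 (-1.96 to -0.69), Socs1 with -0.91 (-1.61 to -0.23), Cish with -0.55 (-1.09 to -0.03) and Stat3 with -0.95 (-1.55 to -0.38). Pim1 was higher there, with 0.42 (0.19 to 0.66). Of the 302 genes that reached 200 UMIs there, Pim1 being the one member, 2.32% were past 0.5 lower and 3.97% higher. The members that were lower had 28 to 82 UMIs in a library, and no share of all genes was counted at that level. After thinning, the log2 ratio in this cluster was 0.13 (-1.27 to 1.5) for Stat3 and -0.47 (-1.85 to 0.81) for Socs3. Basophil-like cells, with 73 and 43 cells, had Pim1 higher with 0.45 (0.22 to 0.67).

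**Figure D2:**
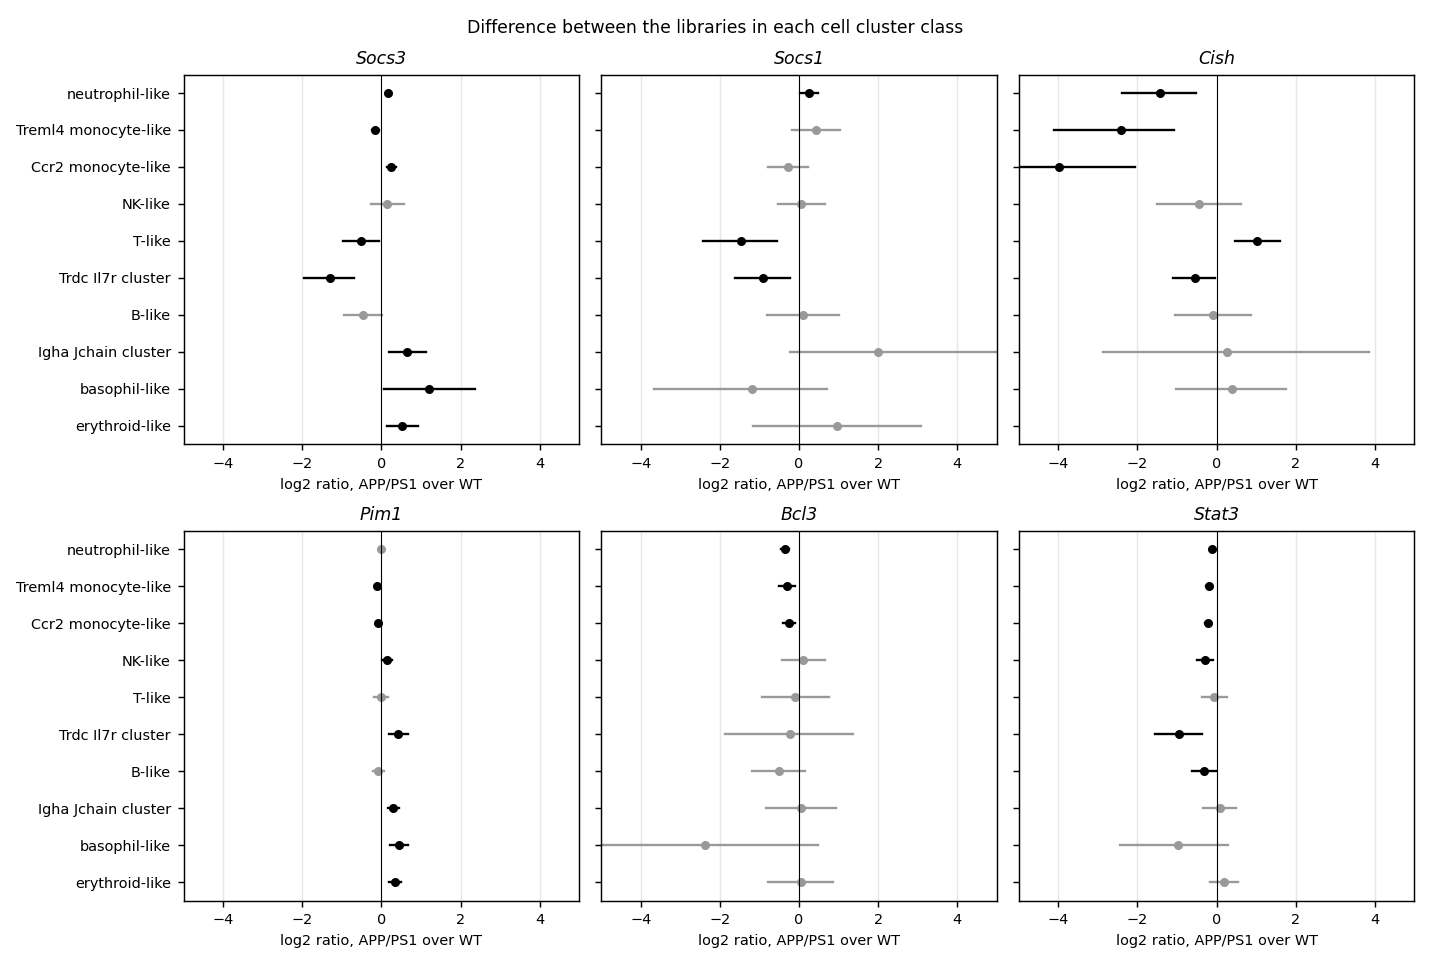
Log2 ratio of APP/PS1 over WT for each gene (horizontal axis) in 10 cell classes. Points are ratios of summed UMIs and lines exact 95% intervals for counting error, cut at 5 on either side. Black marks intervals that leave out 0 and grey those that include it; no point is drawn for Cish in erythroid-like cells, where the APP/PS1 library had 0 UMIs. Bcl3 and Stat3 lie left of 0 in neutrophil-like and both monocyte-like classes, and Cish is far left in the same classes and right in T-like cells.

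Cish was far lower in APP/PS1 in the neutrophil-like and both monocyte-like classes, but not in basophil-like cells, which had 12 and 9 UMIs and a log2 ratio of 0.39 (-1.03 to 1.76). In Ccr2 monocyte-like cells it had 48 UMIs in WT and 2 in APP/PS1, that is 2.33 and 0.148 CPM, a log2 ratio of -3.98 (-7.07 to -2.05). In Treml4 monocyte-like cells it had 43 and 5 UMIs, a log2 ratio of -2.41 (-4.11 to -1.08), and in neutrophil-like cells 32 and 16 UMIs, a log2 ratio of -1.44 (-2.40 to -0.53). Genes were ranked with a minimum of 30 UMIs in either library and 0.5 counts added. In Ccr2 monocyte-like cells 2 of 10364 genes, Hebp1 and Hbegf, had a lower ratio than Cish. In Treml4 monocyte-like cells 3 of 9788 did, Ptgs2os, Hebp1 and Hbegf. In neutrophil-like cells 24 of 9512 genes had a lower ratio. The share of genes past a log2 ratio of 1 lower was 0.897% in Ccr2 and 0.828% in Treml4 monocyte-like cells and 0.788% in neutrophil-like cells. In each of these classes Cish reached the minimum only in WT, where it was higher. The minimum was chosen after the values were seen, so the ranks are a description and not support for a difference.

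The WT UMIs of Cish were spread over cells: 44 Ccr2 monocyte-like cells held the 48 UMIs, with at most 3 in a cell, and 43 Treml4 monocyte-like cells held 1 each. Few lay in cells with lymphoid RNA. Of the 48 and 43 UMIs, 4 and 3 were in cells that also had a UMI of Cd3e, Cd3g, Trac, Trbc2, Ncr1, Nkg7 or Cd79a, and of the 32 in neutrophil-like cells 0 were. Without such cells the log2 ratio was -3.84 in Ccr2 and -2.29 in Treml4 monocyte-like cells. Of 100 genes within 5 Mb of it with at least 30 UMIs in Ccr2 monocyte-like cells, 1, Abhd14b, was past a log2 ratio of 1 lower and 3, Trf, Camp and Ltf, were past it higher. Of 90 in Treml4 monocyte-like cells 0 were lower and 4, the same 3 and Ngp, were higher. In T-like cells Cish was higher in APP/PS1 instead, from 37 and 97 UMIs, 29.5 and 59.6 CPM, a log2 ratio of 1.01 (0.45 to 1.60). There 1.1% of 5891 genes with at least 30 UMIs were past 1 higher. Without the limits on UMIs and genes per cell the log2 ratio in T-like cells was 0.002 (-0.33 to 0.33). In B-like cells, with 20 and 21 UMIs, it was -0.09 (-1.04 to 0.87).

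Neutrophil-like cells were clustered again into 7 clusters. The members and the gene lists were left out of the clustering features, except for the platelet genes, which were not left out. Socs3 and Pim1 were highest in cluster 2, of 3028 cells led by Igkc, Clec4n, Csf1, Dusp2 and Nr4a1, at 334 and 351 CPM for Socs3 and 2138 and 2069 for Pim1 in WT and APP/PS1. Against the other neutrophil-like cells, the log2 ratio was 0.40 and 0.31 for Socs3 and 0.50 and 0.49 for Pim1. In cluster 2 18.1% of genes in WT and 12.6% in APP/PS1 were past 0.5 higher. Socs1 was highest in cluster 3, of 2092 cells led by Ifit3, Ifit1 and Rsad2, which interferon induces. Its level there was 21.7 in WT, from 46 UMIs, and 27.5 in APP/PS1, from 99, with log2 ratios over the others of 1.16 (0.67 to 1.64) and 1.34 (0.99 to 1.67). Past 0.5 higher in cluster 3 were 3.07% and 3.03% of genes.

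Cluster 5, of 377 cells led by Camp, Ngp and Ltf, genes of granule proteins made before neutrophils mature, had the least of Socs3, Pim1, Bcl3 and Stat3. Socs3 stood there at 52.7 and 40.2, with log2 ratios over the others of -2.36 and -2.93, and Pim1 at 404 and 325, with -2.00 and -2.33. Bcl3 was at 31.1 and 20.1 and Stat3 at 158 and 133. Lower by more than 0.5 in cluster 5 were 37.8% and 39.8% of all genes. Cluster 0, the largest with 6034 cells and led by Stfa1, Stfa2 and Retnlg, had less Pim1, at 1375 and 1374, and less Socs1, at 7.32 and 9.38, than the rest. Cluster 1, led by platelet genes, differed little, with Socs3 at 270 and 291 and Pim1 at 1568 and 1542. Between genotypes Bcl3 was lower in APP/PS1 in each of the 7 clusters, with intervals leaving out 0 in clusters 0, 3 and 4. Its log2 ratio ran from -0.18 in cluster 1 to -0.63 in cluster 5. The share of all genes lower in every cluster was not counted. The Socs3 ratio ran from -0.39 (-0.99 to 0.21) in cluster 5 to 0.21 (0.06 to 0.35) in cluster 3. In cluster 2, with 1021 WT and 2007 APP/PS1 cells, it was 0.07 (-0.06 to 0.20). The part of cluster sizes in the Socs3 ratio of all neutrophil-like cells was not tested.

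**Figure D3:**
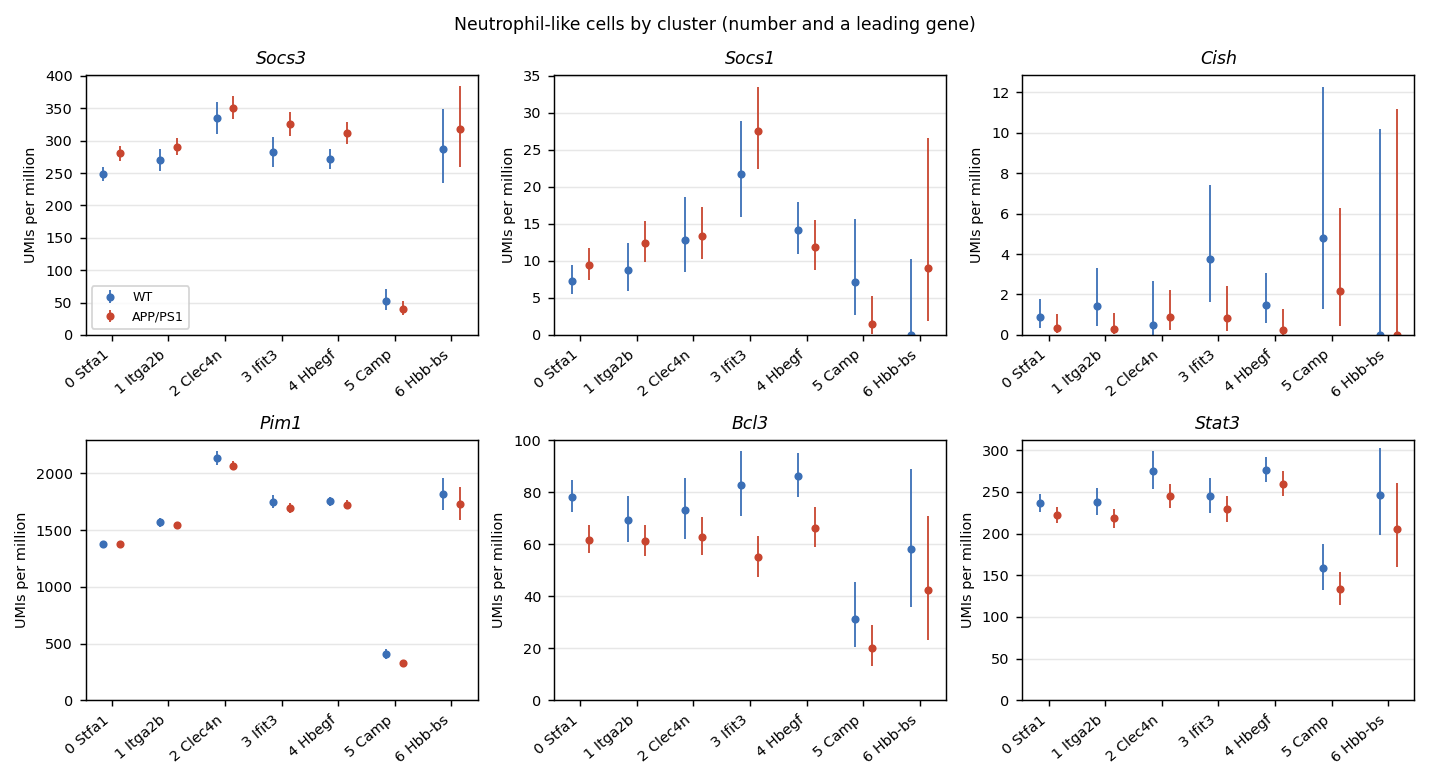
Level of each gene in CPM (vertical axis, from 0) in the 7 clusters of neutrophil-like cells, named by number and a leading gene, WT in blue and APP/PS1 in red. Points are 1 library each and lines exact 95% Poisson intervals. Socs3 and Pim1 are highest in cluster 2 and lowest in cluster 5, and Socs1 is highest in cluster 3.

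Neutrophil-like cells with a Socs3 UMI were set against those without one, within each library and after thinning to 1000 UMIs. Of WT cells 1671 had a Socs3 UMI and 5914 had none, and of APP/PS1 cells 2296 and 7291. Pim1 was a little higher in cells with Socs3, at 1754 against 1595 CPM in WT, a log2 ratio of 0.14 (0.08 to 0.20), and at 1756 against 1640 in APP/PS1, 0.10 (0.05 to 0.15). The median over all genes was 0.02 in both, and 79.7% of genes in WT and 72.2% in APP/PS1 had a lower ratio than Pim1. Bcl3 was nearly level, with -0.06 (-0.35 to 0.22) and -0.04 (-0.32 to 0.24). Stat3 had 0.13 (-0.03 to 0.28) and 0.05 (-0.09 to 0.19), and Socs1 0.10 (-0.70 to 0.84) and 0.43 (-0.14 to 0.97). Of the 3 members with at least 200 UMIs 0 were past 0.5 higher, beside 0.413% of genes in WT and 0.254% in APP/PS1 that were.

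The wider pathway in neutrophil-like cells was read through lists of receptors, kinases, inhibitors and targets. Among cytokine receptors, 18 of 32 listed genes had 200 UMIs, and 1 was past 0.5 higher in APP/PS1 and 1 lower. Csf3r, the G-CSF receptor, was level at 2380 and 2384 CPM, Csf2rb, the common beta chain, was at 335 and 293, and Il17ra, the IL-17 receptor, at 329.9 and 340.0. The receptor that was higher was Ifngr2, a chain of the interferon gamma receptor, at 115 and 164, a log2 ratio of 0.51 (0.44 to 0.58), and the one that was lower was Il10ra, the IL-10 receptor, at 88.7 and 57.6, with -0.62 (-0.72 to -0.53). The list's median was -0.02. All 10 Janus kinases and other STATs had enough UMIs and 0 were past 0.5, with a median of 0.02. Jak1, a kinase shared by many cytokine receptors, stood at 368 and 367, and Stat6, the STAT of IL-4, at 118 and 116.

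Of 20 other inhibitors 14 were measured, with a median of 0.08. Usp18, which blocks the type I interferon receptor, was past 0.5 higher at 24.5 and 35.4, a log2 ratio of 0.53 (0.38 to 0.69). With TMM library sizes neither Usp18 nor Ifngr2 was past 0.5. The phosphatases Ptprc, Ptpn1 and Ptpn6, highest in this list, were at 2378 and 2418, 465 and 403, and 452 and 431. Among 21 other STAT3 or STAT5 targets 18 were measured, with a median of 0.01, 2 higher and 2 lower. Fos was at 2597 and 3989, with 0.62 (0.60 to 0.63), and Icam1, an adhesion molecule, at 9.18 and 13.5, with 0.55 (0.30 to 0.81). Id2, an inhibitor of helix-loop-helix factors, was at 141 and 79.9, with -0.82 (-0.90 to -0.74), and Hif1a, the oxygen-sensing factor, at 193 and 136, with -0.50 (-0.57 to -0.44). Junb, Mcl1 and Cebpb, the highest of the list in WT, had log2 ratios of 0.36, 0.01 and -0.07.

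All 10 listed genes of IκB proteins and NF-κB subunits were measured and 0 were past 0.5, with a median of 0.09. Nfkbia, Nfkbiz and Nfkbid, relatives of Bcl3, had log2 ratios of 0.08, 0.09 and 0.25. Bcl3 at -0.36 lay below all 10 genes of the list. The immediate early and handling response genes, which also respond to cell preparation, had more genes past 0.5: 7 of 16 measured were higher past 0.5 and 0 lower, with a median of 0.44. Dusp1 and Junb were at 0.09 and 0.36, and Fos at 0.62, Btg2 at 0.51, Egr1 at 0.68, Zfp36 at 0.75, Ier2 at 0.50, Jun at 0.80 and Egr2 at 0.81. With TMM library sizes 5 were past it, without Ier2 and Btg2. Of the 10 platelet genes 6 were higher past 0.5, with a median of 0.52: Nrgn at 0.52, Clec1b and Gp9 at 0.55, Itga2b at 0.51, Treml1 at 0.61 and Tubb1 at 0.75. With TMM 4 were, without Nrgn and Itga2b. Pf4 and Gng11, high in this list, were at 0.17 and 0.47.

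The same lists were read in monocyte-like cells. In Treml4 monocyte-like cells 3 of 20 receptors were past 0.5 lower and 0 higher, Il4ra with -0.54, Il3ra with -0.57 and Il21r with -0.91, and 1.69% of all genes were lower and 0.735% higher past 0.5. In Ccr2 monocyte-like cells 2 of 19 were lower, Csf2rb2 with -0.59 and Il18rap with -0.56, and 0 higher, where 2.17% and 1.05% of all genes were. Dusp2, a phosphatase of MAP kinases, was higher in both, with 0.62 and 0.60. Nfkbiz, a relative of Bcl3, was higher in Treml4 monocyte-like cells, with 0.65 (0.59 to 0.71). Among the other STAT3 or STAT5 targets, Id2 was lower and Bcl6, a transcriptional repressor, higher in Treml4 monocyte-like cells, with -1.11 and 0.68, and in Ccr2 monocyte-like cells Ier3 was lower with -0.76 and Fos higher with 0.50. Socs7 was lower in Treml4 monocyte-like cells, with -0.61. Of 15 immediate early genes 3 were higher and 0 lower in Treml4 monocyte-like cells, while in Ccr2 monocyte-like cells 4 were higher and 3, Fosb with -0.64, Egr1 with -0.85 and Ier3, lower. Of the platelet genes 0 of 7 and 2 of 9 were past 0.5 higher.

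**Figure D4:**
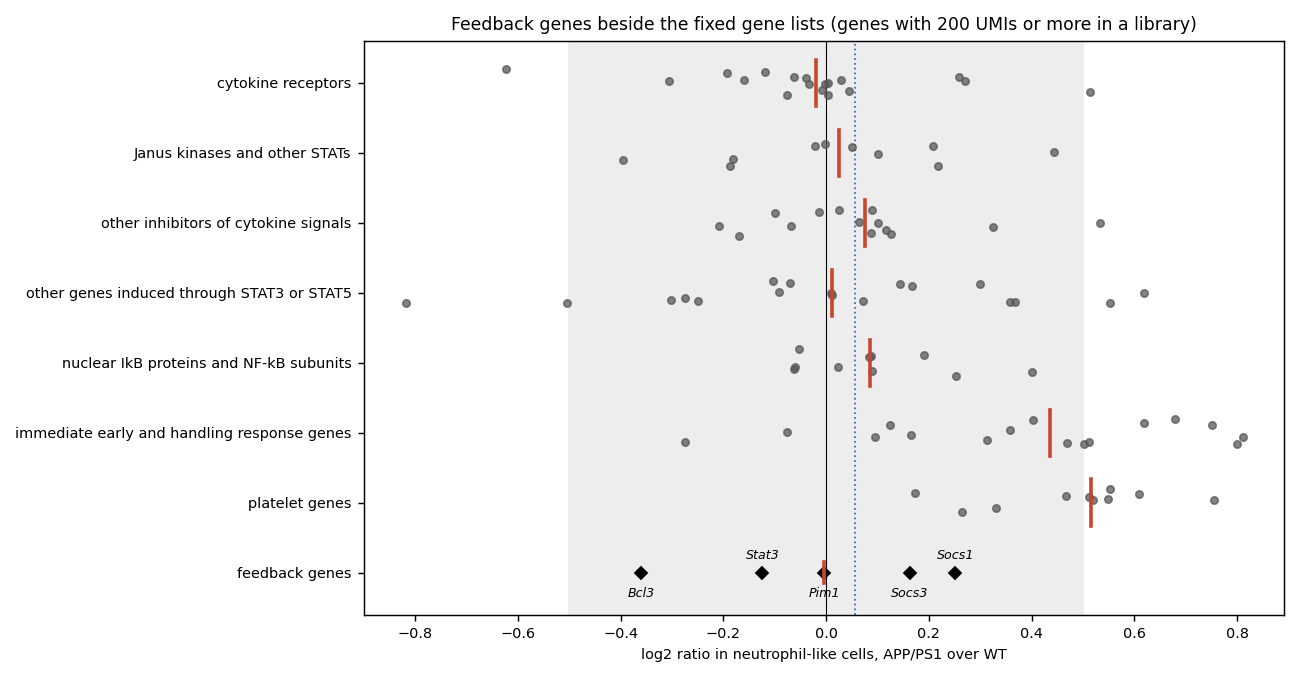
Log2 ratio of APP/PS1 over WT in neutrophil-like cells (horizontal axis) for genes reaching 200 UMIs in either library: grey points are genes of each list, red bars the list medians, and black diamonds 5 of the 6 feedback genes, Cish having too few UMIs. The grey band spans 0.5 on either side of 0 and the dotted line is the median of all 6147 genes. The 5 feedback genes lie inside the band, while most platelet genes and 7 immediate early genes lie right of it.

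Genes whose levels ran most like each member were ranked over the 16 profiles among 8907 genes with at least 500 UMIs, by Pearson's r of log2(CPM + 1). For Socs3 they were Lpcat2 (r = 0.97), Gcnt2, Cpd, Pilra and Usp32 (r = 0.96 for the last). For Pim1 they were Zdhhc9 (r = 0.97), Kdm6b, Cd44, Tmcc1 and Csnk1e. For Bcl3 they were Pkm (r = 0.94), Scamp1, Ints12, Evi2 and Borcs6, and for Stat3 Mapk3 (r = 0.93), Fmnl1, Hcls1, Ptk2b and Ptpn12. For Socs1 they were Cd164 (r = 0.92), Tnfrsf18, Ahi1, Yaf2 and Card6, and for Cish Pced1b (r = 0.925), Dnajc9, Grap2, Cd27 and Dtx1. The profiles of one class in both libraries share cell type, so these values describe the order of classes. No member was among the 5 nearest genes of another.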

How the data were processed

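The authors enriched blood neutrophils, made libraries with the 10X Genomics v3.0 kit and deposited, for each library, UMI counts per gene and cell barcode, made with Cell Ranger 5.0.0 and mm10 and not normalized. Within each library, a cell was kept if both its gene number and its UMI number lay between percentiles 5 and 95. Mitochondrial UMIs of a kept cell were at most 10%. Genes seen in fewer than 3 cells were dropped for the clustering only, and summed UMIs used all listed genes. Seurat 5.3.0 clustered the cells on 1968 variable features, with 15 principal components at resolution 0.2 (neutrophil-like cells: anchors between libraries, resolution 0.3). The members and all lists except the platelet genes were left out of the features. Clusters were named from fixed markers by a threshold set after the clusters were seen. Clusters under 100 cells, 103 cells in all, were not used. UMIs were summed per library and class and divided by the class total. Levels have exact Poisson, shares exact Clopper-Pearson and ratios exact conditional 95% intervals. With 1 library per genotype no test was possible. Doublets (highest 8% of Scrublet scores per library) were kept and removed in an alternative; TMM factors came from edgeR 4.0.16. The members and lists were chosen with earlier results of these data known. Named besides the members were the 3 highest genes of each list in neutrophil-like cells, every list gene past a log2 ratio of 0.5 there, and the 5 most similar genes; 1 of the genes this rule names is not reported here. The minimum of 30 UMIs, the genes near Cish and list genes in monocyte-like cells were chosen after the values were seen. Scripts were tested on simulated counts.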

Additional observations from a re-analysis of the deposited data

Results flagged for a closer look

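Some members had ratios of opposite sign in neutrophil-like cells and another class, each with an interval leaving out 0. The difference between classes was not tested, and the share of all genes with such opposite signs was not counted. Socs3 had a log2 ratio of 0.16 in neutrophil-like cells and -0.15 in Treml4 monocyte-like cells, -0.52 in T-like cells and -1.31 in the Il7r and Trdc cluster. After thinning it was -0.47 in that cluster, with an interval including 0. Socs1 had 0.25 in neutrophil-like cells, -1.46 in T-like cells and -0.91 in the Il7r and Trdc cluster. Within each of the large neutrophil-like clusters alone the Socs1 interval included 0. Cish had -1.44 in neutrophil-like cells and 1.01 in T-like cells, where it was 0.002 without limits on UMIs and genes per cell.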

How the results depend on the processing

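Of 90 repeats of the neutrophil-like ratios, 85 moved by less than the counting interval. Over 15 alternatives each, Socs3 ranged from 0.12 to 0.21, Socs1 from 0.21 to 0.40, Cish from -2.07 to -1.23, Bcl3 from -0.40 to -0.29 and Stat3 from -0.17 to -0.08. Without cells holding a platelet UMI, Socs3 was at 0.21 and Pim1 at 0.10. Pim1, -0.003 as reported, was at 0.0330 with thinned cells, -0.0480 with TMM library sizes and -0.0476 with a library size free of abundant RNA classes. With TMM, 0 cytokine receptors and 0 other inhibitors were past 0.5 higher, against 1 each. In the other classes 21 of 53 ratios changed sign under an alternative and 23 repeats moved beyond the counting interval. Of ratios whose reported interval left out 0, 6 changed sign: Pim1 in NK-like cells was -0.10 without doublets, Stat3 was 0.13 in the Il7r and Trdc cluster and 0.10 in B-like cells after thinning, Socs3 was -0.12 in basophil-like cells without percentile limits and -0.27 in erythroid-like cells after thinning, and Pim1 was -0.00792 in erythroid-like cells with percentiles over both libraries. The cause was not tested. No paired analysis was possible because there was 1 library per genotype, and no replicate could be left out. Depth limits Cish and Socs1 most, and counting intervals leave out the spread between mice.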
